A study of Caenorhabditis elegans with 6 samples.

Results

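The MES proteins and the H3K36 methylation machinery are chromatin regulators that the worm germline needs for its identity and survival. The 6 genes examined here encode the 3 subunits of the Polycomb repressive complex 2 (PRC2), *mes-2*, *mes-3* and *mes-6*, the H3K36 methyltransferases *mes-4* and *met-1*, and the chromodomain protein *mrg-1*, a reader of H3K36 methylation. They were chosen by name and function and not by a threshold on their values, but with earlier results of these data known. All 6 were found among the 46772 genes of the deposited count tables. In *C. elegans*, MES-2 with its partners MES-3 and MES-6 methylates H3K27, a mark of repressed chromatin, which is abundant on the X chromosome of germ cells. MES-4 keeps H3K36 methylation on genes that were active in the germline of the mother, independently of ongoing transcription, whereas MET-1, the Set2 homolog, places the mark during transcription. Loss of the *mes* genes from the mother leaves offspring sterile, and loss of *mes-4* or *mrg-1* also raises X-linked transcripts in germ cells.

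RNA was sequenced from dissected gonads of young adult N2 (wildtype) and *set-2(bn129)* hermaphrodites, with 3 biological replicates of each strain. *set-2* encodes the SET1-type H3K4 methyltransferase of the COMPASS complex and *bn129* is a loss-of-function allele, studied here in homozygotes whose mothers were heterozygous, so the mothers still carried a functional copy. No other allele or treatment is named for these samples. Each sample pooled the distal gonads of 5 to 7 worms dissected 12 h after the L4 stage, which limits n to 3 pools per strain. The comparison asks whether loss of *set-2* was accompanied by altered transcript levels of these other chromatin regulators.

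The 6 libraries held 23403396 to 30724547 counts, of which ribosomal RNA genes took 13.6% to 14.9% in wildtype and 8.06% to 10.6% in *set-2*. The *set-2* transcript itself was lower in every mutant library (149, 161 and 151 CPM against 87.3, 94.1 and 99.2, log2 fold change -0.71, adjusted p = 2.9e-06 by edgeR). All 10 germline markers were detected, and they summed to 3034 to 3286 CPM in wildtype and 2980 to 3268 CPM in *set-2* libraries. Of these 10, 1 passed the test as higher and 3 as lower, beside 41.4% of all genes tested that passed. The 6 oocyte markers summed to 7263 to 7353 CPM in wildtype and 7109 to 7331 CPM in *set-2* libraries, with 1 called, as lower. Of 7 sperm markers, 6 stayed under 1 CPM in every library, and the seventh, *spe-9*, was called higher in *set-2*, at 2.11, 2.31 and 1.38 CPM against 0.206, 0.255 and 0.207 CPM. Markers of muscle and intestine were higher in wildtype libraries. The 8 muscle markers summed to 179 to 329 CPM against 129 to 141 CPM in *set-2*, and all 8 passed the test as lower. The 8 intestine markers summed to 214 to 564 CPM against 67.2 to 158 CPM, with all 6 that were tested lower. Hypodermis markers summed to 40.9 to 81.5 CPM against 32.6 to 36.2 CPM, with 5 of the 6 under 1 CPM in every library, and somatic gonad markers to 58.4 to 76.1 CPM against 34.5 to 37.5 CPM. Most of the somatic gonad sum came from *inx-8* (44.6 to 59.9 CPM against 20.8 to 22.6 CPM), 1 of 3 tested was called, and *lim-7* was at 1.94 to 2.92 CPM against 3.05 to 3.44 CPM. Neuron markers summed to 73.7 to 77.9 CPM against 68.7 to 70.3 CPM. Wildtype replicate 1 had the lowest muscle, intestine and hypodermis sums of its strain and the highest somatic gonad sum. In such bulk samples, fewer cells of a type and less RNA per cell cannot be told apart.

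Levels are given as CPM after TMM scaling, that is, counts relative to a library size corrected for composition, and 1 CPM stood for 23.5 to 31.1 counts depending on the library. The 6 genes had between 2234 and 5754 counts in each library. Fold changes are *set-2* over wildtype on the log2 scale, and p-values are edgeR's, adjusted by Benjamini-Hochberg over the 9431 genes tested (n = 3 libraries per strain). They weigh the difference between strains against the spread between the libraries of a strain. A gene is said to rise or fall when its adjusted p-value was at most 0.05, and to be misregulated when it also changed by at least 0.58 on the log2 scale.

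Of the PRC2 genes, *mes-3* fell in *set-2* gonads, *mes-2* was level, and *mes-6* was lower by less than the test could separate from the spread between libraries. *mes-2*, the E(z) homolog that carries the catalytic SET domain of PRC2, is WBGene00003220 on chromosome II (14383973 to 14388454 on WBcel235, plus strand), with a single annotated transcript of 8 exons that codes for 773 amino acids. Its level was 101, 103 and 104 CPM in wildtype replicates 1, 2 and 3 and 102, 105 and 101 CPM in *set-2* replicates 1, 2 and 3. The libraries of the strains were interleaved, and the log2 fold change was 0.0023 (95% confidence interval -0.08 to 0.08, edgeR adjusted p = 0.97).

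*mes-3* encodes a PRC2 subunit without an evident sequence counterpart outside nematodes. It is WBGene00003221 on chromosome I (4996835 to 5003202, plus strand), with 3 annotated transcripts, of which the longest coding form has 15 exons and 754 amino acids. Its level was 131, 128 and 138 CPM in wildtype and 118, 117 and 115 CPM in *set-2* libraries, so that every mutant library lay below every wildtype library. Expression fell by 11.9% (95% confidence interval -16.9% to -6.60%), from 132 ± 5.01 CPM (SD, n = 3) to 117 ± 1.4 CPM (SD, n = 3). On the log2 scale this was -0.18 (standard error 0.039, edgeR adjusted p = 0.0031). The adjusted p-value stayed between 0.0025 and 0.013 in all 13 alternative fits, which included leaving out each library in turn. Muscle and intestine markers were also lower in *set-2* libraries, and their part in the difference was not tested.

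*mes-6* encodes the WD40-repeat subunit of PRC2, the homolog of ESC and EED. It is WBGene00003224 on chromosome IV (8511284 to 8513469, plus strand), with 7 exons and 459 amino acids. Its exons share 380 bases, 22.7% of their length, with those of C09G4.4 on the same strand, and reads in that stretch may have been dropped or shared, since the counting mode is not given in the sources used here. Its level was 107, 104 and 92.3 CPM in wildtype and 93, 92.9 and 98.0 CPM in *set-2* libraries. Wildtype replicate 3 lay below all 3 mutant libraries, while the other wildtype libraries lay above them. The log2 fold change was -0.10 (95% confidence interval -0.21 to 0.02, edgeR adjusted p = 0.17), and the gene passed the test only without wildtype replicate 3, with -0.16 and an edgeR adjusted p of 0.016.

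**Figure D1:**
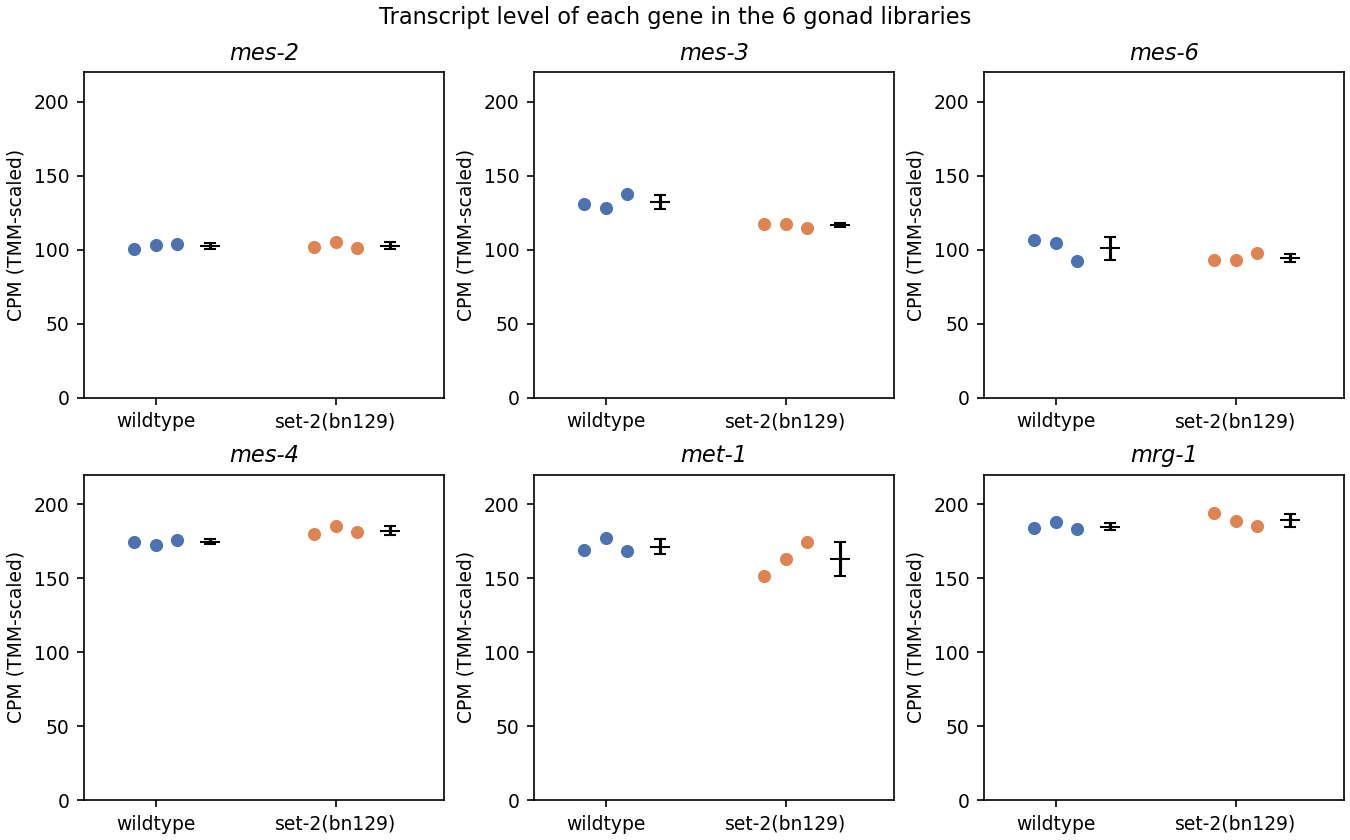
CPM after TMM scaling (y axis, starting at 0) of *mes-2*, *mes-3*, *mes-6*, *mes-4*, *met-1* and *mrg-1* in each of the 3 wildtype (blue) and 3 *set-2(bn129)* (orange) libraries, with the mean and SD in black. The strains separate for *mes-3*, at 128 to 138 CPM against 115 to 118 CPM, and narrowly for *mes-4*, and overlap for the other 4 genes.

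None of the 3 genes of the H3K36 pathway passed the test. *mes-4*, whose product belongs to the NSD family of methyltransferases, is WBGene00003222 on chromosome V (13433050 to 13437545, minus strand), with a single transcript of 10 exons and 898 amino acids. Its level was 175, 173 and 176 CPM in wildtype and 180, 185 and 181 CPM in *set-2* libraries. Every mutant library was above every wildtype library, but the gap was small. The log2 fold change was 0.06 (95% confidence interval -0.01 to 0.14, edgeR adjusted p = 0.16). Over the 13 alternative fits, the adjusted p-values lay between 0.062 and 0.36.

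*met-1* is WBGene00016603 on chromosome I (4254197 to 4264699, plus strand) and the longest gene of the group, with 4 transcripts and a longest product of 1604 amino acids. Its level was 169, 177 and 168 CPM in wildtype and 152, 163 and 174 CPM in *set-2* libraries. Replicates 1 and 2 of *set-2* lay below and replicate 3 within the wildtype range, and the log2 fold change was -0.07 (95% confidence interval -0.18 to 0.04, edgeR adjusted p = 0.27). This value was -0.019 without *set-2* replicate 1 and -0.12 without *set-2* replicate 3, with adjusted p-values of 0.77 and 0.070.

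*mrg-1*, the homolog of human MRG15, is WBGene00003406 on chromosome III (12871029 to 12874656, minus strand), with 4 exons in its longest coding transcript and 337 amino acids. Its level was 184, 188 and 183 CPM in wildtype and 194, 188 and 185 CPM in *set-2* libraries. The strains overlapped, and the log2 fold change was 0.03 (95% confidence interval -0.04 to 0.11, edgeR adjusted p = 0.48).

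In all, the test called 1 of the 6 genes, *mes-3*, as lower. Over all genes tested, 41.4% passed, 20.3% as higher and 21.1% as lower. The share was 45.4% and 48.6% in the expression classes of the 6 genes, which are the upper 2 of 5 equal classes by mean log2 CPM. With so few genes these shares are given side by side and were not compared by a test. None of the 6 genes was misregulated, where 15.3% of all genes tested were, but in the same expression classes that share was 2.49% and 2.12%. Libraries of the strains did not overlap for *mes-3* and *mes-4*, 2 of the 6, against 52.9% of all genes tested. The median log2 fold change of the 6 genes was -0.03, beside -9.0e-04 for all genes tested.

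The confidence intervals bound what the data could have missed. Over the 6 genes they reached from -0.27 (*mes-3*) to 0.14 (*mes-4*), so a change of 0.58 in either direction lay outside the interval of each. The same held for 59.3% of all genes tested, but for 95.3% and 96.3% of genes in these expression classes. The interval widths ran from 0.15 for *mes-4* to 0.24 for *mes-6*, beside class medians of 0.18 and 0.20. The change of *mes-3* was larger than that of 73.9% of the 1886 genes in its expression class, and that of *mes-2* was larger than that of 1.11% of the genes in its class.

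**Figure D2:**
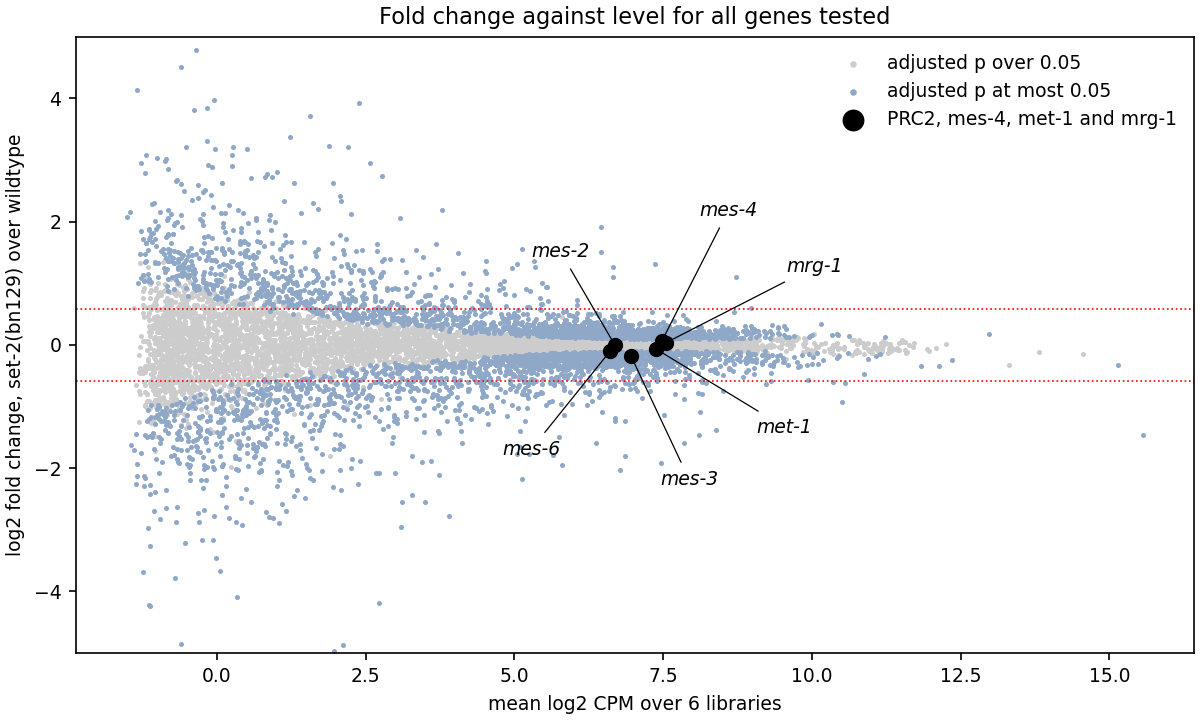
Log2 fold change of *set-2(bn129)* over wildtype (y axis) against mean log2 CPM over the 6 libraries (x axis) for the genes tested, in blue where the adjusted p-value was at most 0.05 and in grey otherwise, with 3 genes outside the plotted range. The PRC2 genes, *mes-4*, *met-1* and *mrg-1* (black) sit on the right, where fold changes are narrow, and between -0.18 and 0.06, well inside the red lines at 0.58 in either direction.

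Levels of different genes were compared per kb of annotated exon. In wildtype gonads *mrg-1* was the most abundant of the 6, at 123 ± 1.68 CPM per kb (SD, n = 3), above 92.0% of all genes tested. *mes-6* followed at 60.4 ± 4.67 and *mes-4* at 55.9 ± 0.54 CPM per kb, and these neighbours did not differ beyond their spread, since *mes-6* ranged from 55.1 to 63.8. The value of *mes-6* would be too low if reads in its shared exon were dropped. *mes-3* with 42.4 ± 1.6 and *mes-2* with 41.4 ± 0.72 CPM per kb also overlapped. *met-1* was lowest, at 30.5 ± 0.88 CPM per kb, and stood below all the others in every library. In *set-2* gonads *mrg-1* was again highest (126 ± 2.94 CPM per kb) and *met-1* lowest (29.0 ± 2.04).

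The order of *mes-3* and *mes-2* was not determined in wildtype. In the mutant, *mes-2* was at 41.5 ± 0.89 and *mes-3* at 37.3 ± 0.45 CPM per kb (SD, n = 3), with no overlap. The spread between libraries does not cover an error in exon length that all libraries share, so it does not settle the order there either. The ratio of *mes-2* to *mes-3* within a library, which does not depend on the scaling between libraries, was 0.971, 1.01 and 0.951 in wildtype and 1.09, 1.13 and 1.11 in *set-2* libraries. Ratios that involve *mes-6* overlapped between strains, with *mes-2* over *mes-6* at 0.689 ± 0.066 in wildtype and 0.735 ± 0.034 in *set-2* gonads. The level of the 3 PRC2 genes summed per kb was 146, 145 and 141 in wildtype and 134, 135 and 136 in *set-2* libraries. The ratio of *mes-4* to *met-1* was 1.84 ± 0.069 and 2.02 ± 0.13 and overlapped, because *set-2* replicate 3 (1.88) lay within the wildtype range of 1.76 to 1.89. No test was run on these ratios, which are given as a description.

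**Figure D3:**
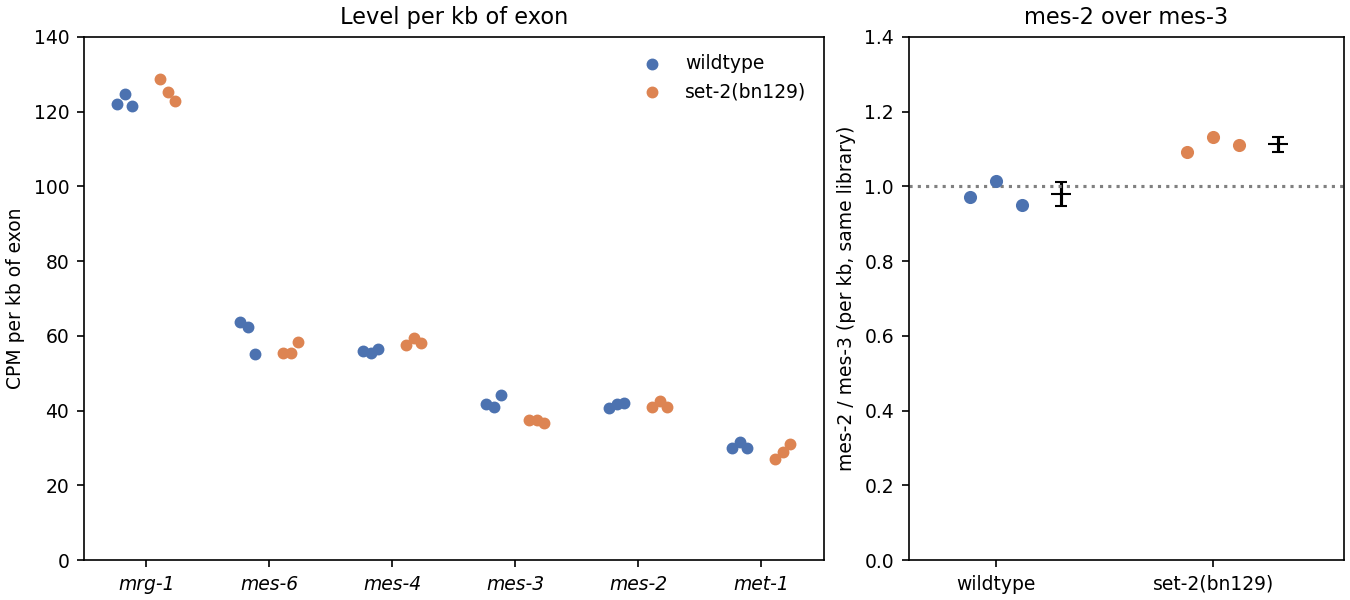
Left, CPM per kb of exon (y axis, starting at 0) of each gene in the 3 wildtype (blue) and 3 *set-2(bn129)* (orange) libraries, ordered by the wildtype mean from *mrg-1* (123) to *met-1* (30.5). Right, the ratio of *mes-2* to *mes-3* within each library with mean and SD in black, at 0.951 to 1.01 in wildtype and 1.09 to 1.13 in *set-2* libraries.

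Replicates agreed closely for most of these genes. In wildtype, the coefficient of variation ran from 0.975% for *mes-4* to 7.74% for *mes-6*, and in *set-2* from 1.2% for *mes-3* to 7.02% for *met-1*. Counting alone would give 1.44% to 1.99%. The values of *mes-2* and *mes-4* in wildtype, *mrg-1* in wildtype and *mes-3* in *set-2* lay below their own counting value, and those of *mes-6* and *met-1* lay above it in both strains. The median gene of the highest expression class varied by 2.85% in wildtype and 3.2% in *set-2*. The exons of *met-1* span 5623 bases, and long genes also shifted between *set-2* libraries. Long genes and *met-1* were both lowest in *set-2* replicate 1. Long genes were highest in replicate 2, however, and *met-1* in replicate 3. Among the 175 genes of the upper 2 expression classes with at least 5000 bases of exon, the median deviation from the strain mean was -0.08 in *set-2* replicate 1, 0.05 in replicate 2 and 0.03 in replicate 3 on the log2 scale, and *met-1* deviated by -0.10, 0.0029 and 0.10. The part of this shift in the spread of *met-1* was not tested.

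Genes next to the 6 on the same strand, within 1000 bases, were examined because closely spaced worm genes are often transcribed together in operons. *dom-3*, 247 bases downstream of *mes-3*, was at 34.8, 34.1 and 30.6 CPM in wildtype and 31.7, 29.4 and 32.4 CPM in *set-2* libraries. The strains overlapped there (log2 fold change -0.09, edgeR adjusted p = 0.31), unlike for *mes-3*. *cks-1*, a CDK regulatory subunit gene 449 bases downstream of *mes-6*, differed by 0.07 (edgeR adjusted p = 0.23), and C09G4.4, which shares exon bases with *mes-6*, by -0.13 (edgeR adjusted p = 0.089). C43E11.12, which ends 57 bases upstream of *met-1*, differed by 0.12 (edgeR adjusted p = 0.15, but 0.045 without *set-2* replicate 2). *mus-81*, a DNA repair nuclease gene 407 bases downstream of *met-1*, rose from 64.0, 64.0 and 65.4 CPM to 73.8, 71.9 and 72.6 CPM, by 0.17 on the log2 scale (edgeR adjusted p = 0.0040). Y37D8A.6, 731 bases downstream of *mrg-1*, rose by 0.74 (edgeR adjusted p = 0.0034) from 3.3 ± 0.084 to 5.53 ± 0.92 CPM (SD, n = 3). Of the tested neighbours, *mus-81* and Y37D8A.6 rose and the others did not pass, beside 41.4% of all genes tested that passed. No change was called for *met-1* and *mrg-1* next to them. The neighbours of *mes-2* and *mes-4* were nearly silent, with *sdz-26*, F26H11.8 and *srd-17* each under 0.5 CPM in every library. *mes-1*, which shares the maternal-effect sterile phenotype but encodes a receptor tyrosine kinase-like membrane protein rather than a chromatin protein, was at 12.8 ± 1.41 and 11.2 ± 1.05 CPM (SD, n = 3), and its difference of -0.19 on the log2 scale did not pass (edgeR adjusted p = 0.19).

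Among 13 further genes of the H3K27 pathway, which were H3K27 demethylases, histone-binding and chromodomain proteins and PRC1-like factors, 12 were tested. Of these, 7 rose and 0 fell, where 20.3% of all genes tested rose. The median log2 fold change was 0.26, beside -9.0e-04 for all genes. The count was 4 without *set-2* replicate 2. The largest values were those of *jmjd-3.3* and *jmjd-3.1*, which encode JmjC demethylases. *jmjd-3.1* was at 3.00, 2.76 and 1.73 CPM in wildtype and 4.52, 5.95 and 8.0 CPM in *set-2* libraries (log2 fold change 1.31, standard error 0.24, edgeR adjusted p = 0.0014). *jmjd-3.3* had 2 to 15 counts in wildtype and 19 to 37 counts in *set-2* libraries (1.56, standard error 0.49, edgeR adjusted p = 0.023), a call that was lost without wildtype replicate 1 or 2 or without *set-2* replicate 2 or 3, with adjusted p-values of 0.055, 0.076, 0.063 and 0.081. These 2 genes were the misregulated ones of the list, 16.7% of the 12 tested, beside 15.3% of all genes tested. Both were at low levels. In the lowest expression class, that of *jmjd-3.3*, 29.0% of genes were misregulated, and in the next, that of *jmjd-3.1*, 30.8%. *jmjd-3.2* had 0 to 6 counts per library and was not tested.

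*utx-1*, the fourth gene of the UTX and JMJD3 family, rose from 15.2, 14.9 and 15.5 CPM to 17.3, 22.3 and 19 CPM (log2 fold change 0.36, edgeR adjusted p = 0.012). For the 3 tested genes of this family the mutant libraries lay above the wildtype ones without overlap, as for 26.8% of all genes tested. The remaining JmjC demethylase gene of the list, *jmjd-1.2*, was at a higher level and overlapped between strains, with 211, 211 and 214 CPM against 213, 220 and 233 CPM (log2 fold change 0.07, edgeR adjusted p = 0.19). *lin-53* and *rba-1* encode RbAp46/48-type histone-binding proteins, relatives of a PRC2 subunit of other animals. *lin-53* rose by 0.14 (edgeR adjusted p = 0.017, and 0.061 without wildtype replicate 1), from 328 ± 11.9 to 361 ± 6.11 CPM (SD, n = 3), while *rba-1* differed by 0.09 (edgeR adjusted p = 0.078, but 0.041 with upper quartile normalization and 0.030 with library sizes taken without the 10 most abundant genes). Of the PRC1-like genes, *sor-1* rose by 0.45 (edgeR adjusted p = 0.0063), while *sop-2* overlapped between strains and differed by 0.16 (edgeR adjusted p = 0.26). *spat-3*, an H2A ubiquitin ligase gene, was called at 0.43 (edgeR adjusted p = 0.023), but its libraries overlapped, with 60.6, 58.2 and 48 CPM against 58.2, 74.8 and 91.5 CPM, and the call was lost with DESeq2's Wald test (adjusted p = 0.12) and without wildtype replicate 3 or *set-2* replicate 2 or 3 (0.085, 0.071 and 0.087). The ring finger gene *mig-32*, whose product acts with SPAT-3, shares exon bases with another gene on the same strand. It had the log2 fold change 0.06 and the chromodomain gene *cec-6* 0.0081, the lowest values of the list. Their edgeR adjusted p-values were 0.27 and 0.89. The chromodomain gene *cec-1* rose by 0.49 (edgeR adjusted p = 0.031), from 4.73, 3.53 and 4.42 CPM to 5.73, 6.88 and 5.21 CPM.

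Of 13 genes listed under H3K36 methylation or MRG-1, which were demethylases, other SET domain proteins, MRG-1 partners and transcription elongation factors, all were tested. There were 3 that rose and 5 that fell, beside 20.3% and 21.1% of all genes tested, with a median of -0.05. The count of 8 was 4 without wildtype replicate 2, 5 without *set-2* replicate 1 or 2, and 5 with library sizes taken without the 10 most abundant genes. *set-26* and *set-9* fell most. Their products are closely related PHD and SET domain proteins, and reads could be split between or lost from such similar copies. Whether these proteins act on H3K36 was not tested. *set-26* was at 63.3, 66.4 and 54.9 CPM in wildtype and 35.5, 43.7 and 43.6 CPM in *set-2* libraries (-0.59, standard error 0.086, edgeR adjusted p = 3.4e-04) and was misregulated. *set-9* was at 165, 165 and 138 CPM and 94.5, 103 and 118 CPM (-0.56, standard error 0.082, edgeR adjusted p = 3.4e-04), just under the fold threshold. Summed over both genes, the level was 193 to 231 CPM in wildtype and 130 to 162 CPM in *set-2* libraries and did not overlap.

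At the other end, *emb-5*, the homolog of the elongation factor Spt6, rose from 566, 566 and 586 CPM to 695, 729 and 729 CPM (log2 fold change 0.33, standard error 0.040, edgeR adjusted p = 1.1e-04). Spt6 is known in yeast as a factor that H3K36 methylation by Set2, the MET-1 homolog, depends on. *set-18*, with 18 to 44 counts per library, had the next largest value (0.31, 95% confidence interval -0.39 to 1.01, edgeR adjusted p = 0.46). *sin-3*, which encodes the scaffold of a histone deacetylase complex that MRG-1 contacts, rose by 0.13 (edgeR adjusted p = 0.013, and 0.057 without wildtype replicate 2). Also called were *lin-59* (0.26), as higher, and *jmjd-2* (-0.16), *xnd-1* (-0.15) and *cdk-12* (-0.14), as lower. The 5 genes of the list that did not pass the test were *set-18*, *set-12*, *jmjd-5*, *athp-1* and *rfp-1*. The last 3 had log2 fold changes of 0.01, -0.05 and -0.05. *set-12* had -0.44 (95% confidence interval -0.97 to 0.09, edgeR adjusted p = 0.17), at 1.97, 1.61 and 1.61 CPM against 0.98, 1.30 and 1.54 CPM.

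**Figure D4:**
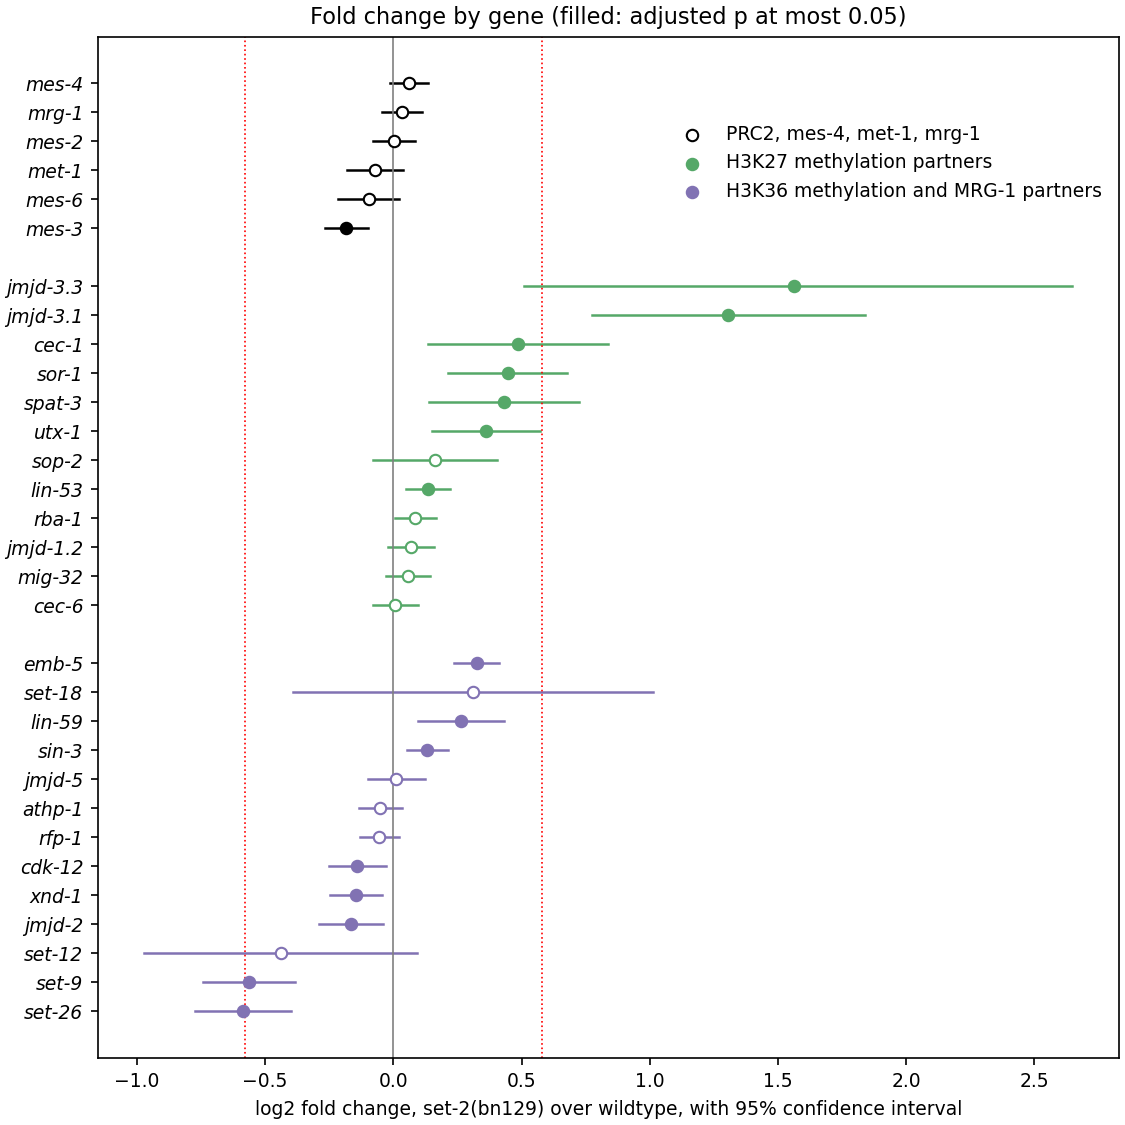
Log2 fold change of *set-2(bn129)* over wildtype with its 95% confidence interval (x axis) for the 6 genes (black), the tested H3K27 partners (green) and the H3K36 and MRG-1 partners (purple), filled where the adjusted p-value was at most 0.05. The black intervals are short and span -0.27 to 0.14, whereas *jmjd-3.3* and *jmjd-3.1* lie beyond the red line at 0.58 and *set-26* just beyond the one at -0.58.

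None of the 6 genes is X-linked, but the X chromosome is where loss of the MES proteins is known to act in germ cells. Of the 13 and 13 genes in the partner lists, 6 are X-linked, 5 of them were tested, and 4 rose, which were *utx-1*, *jmjd-3.1*, *jmjd-3.3* and *spat-3*. These were picked out after their values were seen. Over the whole X chromosome, 1119 genes were tested, of which 196 rose and 202 fell, 35.6% in all, beside 42.2% of the 8262 autosomal genes. X-linked genes took 1.04% to 1.09% of the CPM of genes tested in wildtype and 1.09% to 1.19% in *set-2* libraries. Their median log2 fold change was -0.02 and the share misregulated was 23.2%, beside 14.2% of autosomal genes. X-linked genes lie mostly in the low expression classes. By class, the share misregulated was 29.3% of X-linked and 28.9% of autosomal genes in the lowest, and 22.5% and 33.4% in the next. It was 17.4% and 11.1% in the middle class. In the upper 2 classes it was 22.6% of 31 and 28.6% of 7 X-linked genes, beside 2.11% and 1.98% of autosomal genes. In the lowest class, 33 X-linked genes rose and 65 fell, beside 246 and 200 autosomal genes. In the middle class, 83 rose and 50 fell, beside 293 and 415 autosomal genes. Muscle and intestine markers were lower in *set-2* libraries, and their part in the X-linked falls was not tested.

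By the correlation of log2 CPM over the 6 libraries, given as a description, the gene most like *mes-3* was *lim-9* (r = 0.998), with 11 genes above 0.99. The closest to *mes-4* was C06E2.5 (r = 0.997), and to *met-1*, *pfs-2* (r = 0.984). The closest to *mes-2*, *mes-6* and *mrg-1* were K09E9.5, ZC8.6 and *mig-2*, at 0.985, 0.984 and 0.981. The second closest were C09G9.1 (*mes-2*), R02F2.4 (*mes-3*), *trap-2* (*mes-6*), ZK1098.3 (*mes-4*), *prp-40* (*met-1*) and *memo-1* (*mrg-1*), with r between 0.967 and 0.996. The 6 libraries are 3 of each strain, so a difference between strains enters these values, and the closest genes were taken from all 9431 tested.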

How the data were processed

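Per the submitters' notes and the paper, the authors mapped single reads to WS254 with STAR 2.4.1d and obtained the deposited counts after removing reads of mapping quality under 10 with SAMtools 0.1.19 and counting per gene with HTSeq 0.7.2, so genes with near-identical copies lose reads. The strand setting of the counting is not given in the sources used here. The labels name polyadenylated RNA, but their protocol and the paper describe ribosomal RNA depletion. The authors' table of gene numbers from their own DESeq2 comparison was not used. The tables held 46772 genes and 0 rows without a gene. Gene models came from the Ensembl annotation of WBcel235, which has positions for 46549 of them, and level per kb was CPM over the union of exons. Groups and replicate numbers came from the sample titles.

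The deposited counts were fitted with edgeR 4.0.16 in R 4.3.3 (filterByExpr, TMM, glmQLFit, glmQLFTest), with strain as the single term, and adjusted over all 9431 genes. The thresholds of 0.05 and 0.58 are those of the paper, where no adjustment of the p-value is named. Here 0.05 was applied to adjusted p-values. Named genes were the members, *set-2*, *mes-1*, partner genes past both thresholds, the 2 highest and 2 lowest of each partner list, neighbours within 1000 bases and the 2 genes most alike by Pearson correlation. Other partner genes were named after their values were seen. Each fit was repeated with a replicate block, without each library, with DESeq2 1.42.0, with its size factors, with upper quartile scaling, with library sizes without the 10 most abundant genes, and with genes kept at 1 count in any library or 10 in all. The fit was tested on simulated data. It recovered 46% and 54% of simulated log2 changes of 0.3 and 0.58, and 75.5% and 95.7% of changes of 1 and 2. Of 9066 unchanged genes, it called 8. Members, lists and tests were chosen with earlier results of these data known.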

Additional observations from a re-analysis of the deposited data

How the results depend on the processing

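*mes-3* stayed lower and past the threshold in all 13 alternatives, with log2 fold changes of -0.21 to -0.15, and 0 of the 6 genes was misregulated in any of them. The number of the 6 genes past the adjusted p-value was 1 to 2 when a library was left out, and 1 in the other alternatives. The sign of *mes-2* was not determined, at -3.4e-04 with DESeq2's size factors and -0.0100 and -0.014 without wildtype replicate 1 and *set-2* replicate 2, with 0.015 as the highest value when a library was left out. The sign of *cec-6* was likewise undetermined, at -0.012 and -0.019 without wildtype replicate 3 and *set-2* replicate 3, as was that of *set-18*, at -0.033 without *set-2* replicate 1 and 0.50 without *set-2* replicate 2. The number of H3K27 partner genes past the adjusted p-value was 4 to 6 across left-out libraries. That of H3K36 partner genes was 4 to 8 across left-out libraries and 5 with library sizes without the 10 most abundant genes. The count over all genes, 3908, was 2987 to 3716 when a library was left out, and that over X-linked genes, 398, was 317 to 436. *jmjd-3.3* could not be tested with a minimum of 10 counts in every library. The cause of these shifts was not tested, beyond the fewer samples of fits that left out a library. Over the 3 other scalings, the median log2 fold change of all genes was -0.0035 to 0.031, beside -9.0e-04 with TMM.

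Same-numbered replicates did not deviate together, with correlations of -0.086, -0.048 and -0.17 for numbers 1, 2 and 3, so the numbers were not taken as pairs. With a replicate block, *mes-3* had an edgeR adjusted p of 0.010, 1 of the 6 genes passed, and 3458 of all genes did. The 6 genes had 2234 or more counts in each library, whereas *jmjd-3.2* had 0 to 6, *jmjd-3.3* 2 to 37 and *set-18* 18 to 44, so the values of these 3 partner genes are imprecise.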
